A study of Mus musculus with 6 samples.

Results

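Gas5, Snhg1, Snhg3, Snhg5, Snhg6, Snhg8 and Snhg12 are noncoding genes that carry small nucleolar RNAs (snoRNAs) within their transcription units. They were taken by name from the annotated noncoding snoRNA host genes, by a rule that contains no measured value but was drawn up with earlier results of these data known. They are 7 of the 55536 genes in the count files. All 7 passed the filter on low counts and were among the 12664 genes tested. The data are mRNA sequencing counts from CAD, an SV40-transformed catecholaminergic cell line of the mouse central nervous system (strain C57BL/6 x DBA/2, labelled male). The 3 undifferentiated libraries came from cells grown in 8% fetal bovine serum. For the 3 dexamethasone libraries the cells spent 5 days with the synthetic glucocorticoid dexamethasone at 100 µM in 1% serum, and the medium was renewed every 48 h. Steroid and serum were changed together, so their parts in any difference cannot be told apart, and all cells belong to 1 immortalized line. The samples of a group were collected independently, but separate cultures are not stated, and the spread behind the p-values may be technical.

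A snoRNA host gene is transcribed and spliced like a messenger RNA precursor, and its snoRNAs are trimmed from the introns that splicing releases. The snoRNAs join protein complexes that guide chemical modification or cleavage of ribosomal and other RNAs: C/D box snoRNAs assemble with fibrillarin and direct methylation, and H/ACA box snoRNAs assemble with dyskerin and direct pseudouridylation. The exons of the host are joined into an RNA with little coding potential, and several such RNAs, Gas5 among them, start with a pyrimidine tract like that of ribosomal protein mRNAs and are degraded by nonsense-mediated decay when ribosomes engage them. Gas5 takes its name from growth arrest, in which its spliced RNA accumulates, and the human GAS5 RNA is known to bind the DNA-binding domain of the glucocorticoid receptor.

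The 7 genes held 29 annotated snoRNA entries, 27 if entries of the same name in a host are counted once. By a search for a TGATGA (C box) in the first 20 bases with a CTGA (D box) in the last 20, 17 entries had C/D boxes. A further 6 had ACA with 3 bases after it at the 3′ end, as in H/ACA snoRNAs, and neither was found in the other 6. The following entries show the kind of cargo each host carries. They are annotated transcript sequences with GRCm38 coordinates on the strand of the host, 5′ to 3′. The C and D boxes or the ACA are in capitals.
Snord80 in Gas5, chr1:161037601-161037681, plus strand: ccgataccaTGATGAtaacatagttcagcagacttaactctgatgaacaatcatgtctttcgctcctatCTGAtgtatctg
Gm25855 in Snhg1, chr19:8723993-8724064, plus strand: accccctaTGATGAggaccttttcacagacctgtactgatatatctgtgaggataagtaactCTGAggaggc
Snora73b in Snhg3, chr4:132352322-132352526, minus strand: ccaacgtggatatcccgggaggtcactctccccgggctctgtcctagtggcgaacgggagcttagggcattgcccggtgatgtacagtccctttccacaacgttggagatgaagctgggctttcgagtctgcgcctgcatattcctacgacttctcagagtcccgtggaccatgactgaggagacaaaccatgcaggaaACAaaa
Snord50a in Snhg5, chr9:88521529-88521600, minus strand: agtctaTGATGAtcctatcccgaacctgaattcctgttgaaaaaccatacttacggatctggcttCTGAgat
Snord50b in Snhg5, chr9:88521797-88521868, minus strand: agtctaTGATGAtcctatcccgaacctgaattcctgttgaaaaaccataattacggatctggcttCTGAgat
Snord87 in Snhg6, chr1:9942463-9942549, minus strand: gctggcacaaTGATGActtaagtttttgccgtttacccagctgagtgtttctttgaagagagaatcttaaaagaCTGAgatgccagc
Snora24 in Snhg8, chr3:123507937-123508066, minus strand: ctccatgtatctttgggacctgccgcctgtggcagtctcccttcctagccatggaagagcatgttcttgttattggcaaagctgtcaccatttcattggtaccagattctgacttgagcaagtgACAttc
Snora61 in Snhg12, chr4:132310240-132310369, plus strand: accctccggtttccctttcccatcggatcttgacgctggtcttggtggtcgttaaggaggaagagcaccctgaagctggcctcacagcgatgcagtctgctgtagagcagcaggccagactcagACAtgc

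The pair carried by Snhg5 differed at 1 of 72 bases, C50A from Snord50a to Snord50b, counted from 1 at the 5′ end. Gas5 (ENSMUSG00000053332, GRCm38 chr1:161034422-161038539, plus strand) held 10 snoRNA entries and Snhg1 (ENSMUSG00000108414, chr19:8723475-8726443, plus strand) held 8. Snhg12 (ENSMUSG00000086290, chr4:132308623-132311024, plus strand) held 5. Snhg3 (ENSMUSG00000085241, chr4:132348014-132353686, minus strand) and Snhg5 (ENSMUSG00000097195, chr9:88521050-88522929, minus strand) held 2 each. Snhg6 (ENSMUSG00000098234, chr1:9941959-9944118, minus strand) and Snhg8 (ENSMUSG00000104960, chr3:123507552-123508404, minus strand) held 1 each. Snhg3 and Snhg12 lie 36989 bases apart on chromosome 4.

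These libraries, made with an mRNA selection kit, counted reads over annotated exons of the hosts and did not give mature snoRNA levels. The annotated exons of Snhg1, Snhg8 and Snhg12 together cover the whole span of each gene, 2969, 853 and 2402 bases. Those of Gas5 and Snhg5 cover most of it. Reads from spliced and unspliced RNA of these hosts were therefore not told apart. Of the 29 snoRNA entries, 27 touched an annotated exon of their host. Transcripts labelled as retained introns are annotated for Gas5, Snhg1, Snhg5 and Snhg8. Snhg12 and Snhg3 have 0 such transcripts, yet 5 entries of Snhg12 and 1 of Snhg3 touched an exon. A read that overlapped both such an entry and an exon of the host was not counted for either, and 26 of the 29 entries had no read in any library. Snora73b lies within an intron of Snhg3 and also within the span of Rcc1, a gene on the same strand. Whether reads of this entry came from the snoRNA or from unspliced RNA of either gene was not tested. Snora73b was the only entry with enough reads to be tested. It had 84 reads over the undifferentiated libraries and 22 over the dexamethasone libraries, and it fell by 2.15 ± 0.32 on the log2 scale (SE, edgeR adjusted p = 8.73e-07). Snord87 had 15 and 6 reads and Snora73a had 2 and 0, too few for a test.

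Of the 7 host genes, 3 were higher after dexamethasone (Gas5, Snhg12 and Snhg8), 3 were lower (Snhg3, Snhg5 and Snhg1) and Snhg6 did not pass the test. Genes were called by the quasi-likelihood test of edgeR where p, adjusted over all tested genes by Benjamini-Hochberg, was under 0.05. At that threshold 40.3% of the tested genes were higher and 38.6% were lower, so the share of host genes called in each direction was near the background. The dexamethasone libraries lay wholly above the undifferentiated libraries for 4 members, against 41.0% of tested genes, and wholly below them for the other 3, against 38.9%. The members' median log2 fold change was 0.13, beside 0.02 over all tested genes. All levels below are CPM, a gene's reads relative to its library's total, scaled by TMM factors, which assume that most genes did not change, whereas most tested genes were called, so each change is relative to that scaling. In such bulk samples fewer expressing cells and less RNA per cell cannot be told apart.

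Gas5 was the host gene with the most reads in both states. Its level was 213, 218 and 248 CPM in the undifferentiated libraries and 410, 407 and 395 CPM in the dexamethasone libraries. Every dexamethasone library was above every undifferentiated library, and the third undifferentiated library was the highest of its group. The mean rose 1.79-fold, from 226 ± 19.1 to 404 ± 7.62 CPM (SD, n = 3). On the log2 scale this was 0.84 with an SE of 0.06 (edgeR adjusted p = 8.55e-14), and other log2 fold changes are likewise given ± SE. Of all tested genes, 62.8% had a smaller absolute log2 fold change.

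Snhg12 rose by the largest factor among the 7. It stood at 26.6, 24.2 and 21.4 CPM in undifferentiated cells and at 64.1, 53.6 and 53.8 CPM after dexamethasone. The groups did not overlap, and the first dexamethasone library was above the other two. The mean rose 2.37-fold, from 24.1 ± 2.57 to 57.2 ± 6.01 CPM, with a log2 fold change of 1.25 ± 0.09 (edgeR adjusted p = 1.53e-12). A smaller absolute change was found in 77.9% of tested genes.

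Snhg8, which carries the H/ACA snoRNA Snora24, rose by less. Its values were 34.3, 31.7 and 34.3 CPM before and 42.6, 43.8 and 39.3 CPM after. The libraries of each state stayed apart, and the mean rose 1.26-fold, from 33.4 ± 1.48 to 41.9 ± 2.34 CPM (log2 fold change 0.33 ± 0.08, edgeR adjusted p = 0.000564). This was below the median absolute log2 fold change of all tested genes, 0.61.

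Snhg6, the host of Snord87, had the smallest difference. It stood at 69.5, 70.6 and 64.6 CPM in undifferentiated cells and at 74.2, 76.3 and 73.9 CPM in dexamethasone. The groups did not overlap, but the log2 fold change of 0.13 ± 0.06 did not pass the test (edgeR adjusted p = 0.0646). Over the alternative settings its adjusted p ranged from 0.00083 to 0.246, and it was called higher with upper quartile factors and with library totals alone, so that its call depends on how libraries are scaled.

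Snhg3, the host of Snora73a and Snora73b, fell the most of the 7. It had 23.5, 26.9 and 23.4 CPM in the undifferentiated libraries and 7.2, 6.54 and 7 CPM in the dexamethasone libraries. The dexamethasone values were all below the undifferentiated ones and lay within 1 CPM of each other. The mean was 3.57-fold lower, at 6.91 ± 0.34 against 24.6 ± 2.01 CPM, with a log2 fold change of -1.83 ± 0.13 (edgeR adjusted p = 4.32e-13). A smaller absolute change was found in 88.6% of tested genes.

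Snhg5 had 57.5, 59.4 and 53.9 CPM in undifferentiated cells and 30.6, 29.1 and 31.1 CPM after dexamethasone. The groups lay well apart, and the mean fell 1.89-fold, from 56.9 ± 2.80 to 30.3 ± 1.04 CPM (log2 fold change -0.92 ± 0.08, edgeR adjusted p = 2.07e-11). Snhg1, with 8 snoRNA entries second to Gas5 in cargo, had 95.3, 93.3 and 94.3 CPM before and 65.0, 64.4 and 62.5 CPM after. Its libraries were the tightest of the members in undifferentiated cells relative to their mean, and the mean fell 1.47-fold, from 94.3 ± 0.98 to 64.0 ± 1.28 CPM (log2 fold change -0.56 ± 0.06, edgeR adjusted p = 3.36e-09).

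**Figure D1:**
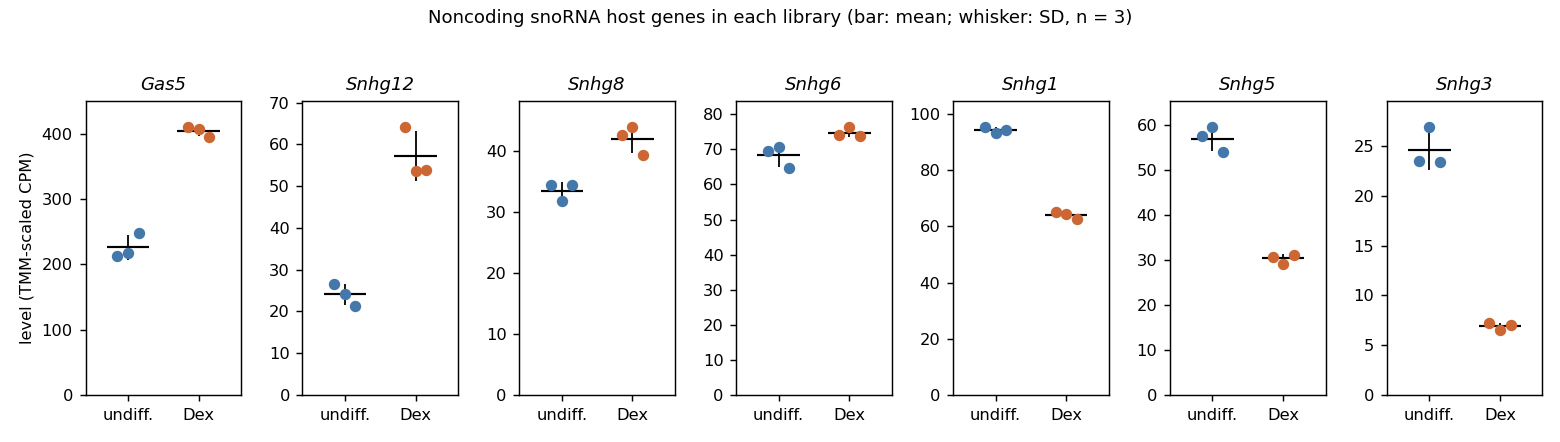
Level of each host gene in TMM-scaled CPM (vertical axes, each starting at 0 with its own scale) in the 3 undifferentiated and the 3 dexamethasone libraries (points), with the mean and SD. Gas5, Snhg12, Snhg8 and Snhg6 have all dexamethasone points above the undifferentiated points, and Snhg1, Snhg5 and Snhg3 have them below.

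The summed level of the 7 genes was 528 ± 10.8 CPM in undifferentiated cells and 679 ± 15.3 CPM after dexamethasone, 1.29-fold higher. Without Gas5 the sum was 302 ± 8.40 and 275 ± 8.11 CPM, a ratio of 0.912. With library totals in place of TMM factors the sum of the 7 was 1.40-fold higher, and the sum without Gas5 was 288 ± 9.12 and 287 ± 6.22 CPM with overlapping groups, a ratio of 0.995. The rise of the total was therefore carried by Gas5 under both scalings. As a share of the summed reads of the members, which does not depend on the scaling between libraries, Gas5 was at 42.8 ± 2.72% before and 59.5 ± 0.36% after. Snhg12 was at 4.57 ± 0.58% and 8.41 ± 0.73%. The shares of Snhg1 (17.9 ± 0.44% and 9.43 ± 0.05%), Snhg5 (10.8 ± 0.72% and 4.46 ± 0.21%) and Snhg3 (4.66 ± 0.42% and 1.02 ± 0.05%) were smaller after dexamethasone, with no overlap between groups.

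Snhg6 was at 12.9 ± 0.85% and 11 ± 0.28% of the member reads, also without overlap, although its CPM was higher after dexamethasone. The share of Snhg8 overlapped between groups, at 6.34 ± 0.28% and 6.17 ± 0.25% (exact two-sided permutation test, p = 0.5). For the other 6 shares the exact p was 0.1, the smallest that 3 against 3 libraries allow, and 0.117 after adjustment over the 7 shares, so no share could pass the threshold.

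**Figure D2:**
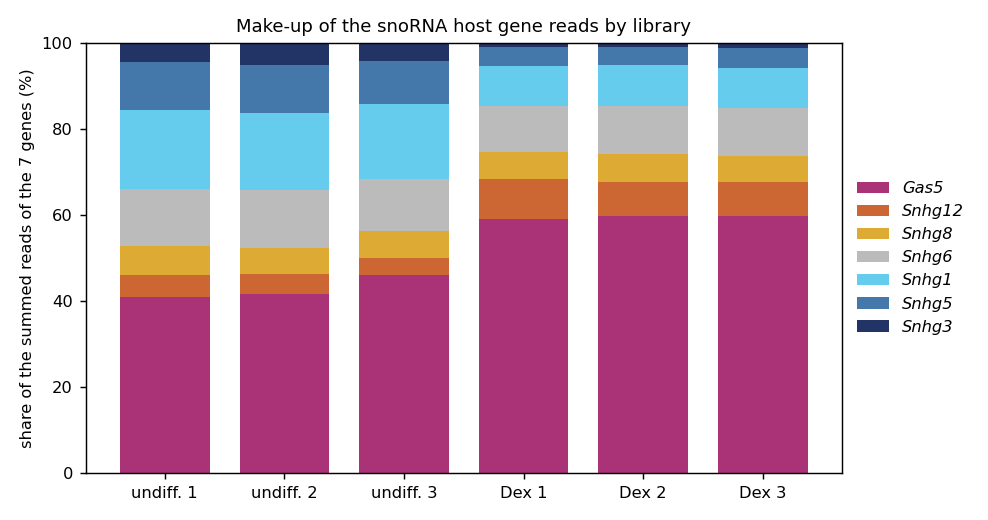
Share of the summed reads of the 7 host genes (vertical axis, percent) taken by each gene in each of the 6 libraries (stacked bars). Gas5 makes up 42.8% on average in undifferentiated cells and 59.5% after dexamethasone, while Snhg1, Snhg5 and Snhg3 shrink.

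Levels were set between genes per kilobase of annotated exon. Over all exon bases, Gas5 (60.2 ± 5.09 CPM per kilobase) and Snhg6 (59.6 ± 2.79) led in undifferentiated cells, and their library values overlapped. Snhg8 followed at 39.2 ± 1.73, then Snhg5 at 32.9 ± 1.62 and Snhg1 at 31.8 ± 0.33, which overlapped each other. Snhg3 at 24.9 ± 2.04 and Snhg12 at 10.0 ± 1.07 CPM per kilobase came last. After dexamethasone the order was Gas5 at 107 ± 2.03, Snhg6 at 65.3 ± 1.16, Snhg8 at 49.1 ± 2.74, Snhg12 at 23.8 ± 2.50, Snhg1 at 21.6 ± 0.43, Snhg5 at 17.5 ± 0.60 and Snhg3 at 7.01 ± 0.34 CPM per kilobase. No neighbours in that order overlapped. Snhg12 had moved from the last place to the fourth, and Snhg3 to the last. The exon length of Gas5, Snhg1, Snhg5 and Snhg8 includes transcripts annotated with retained introns, and that of Snhg12 covers its whole span. With the longest annotated transcript as the length, the middle of the order changed. Exon length also includes bases shared with other genes of the same strand, where reads were not counted. Their share of exon bases ran from 0% in Snhg6 to 29.8% in Snhg3. Per kilobase of unshared exon, Gas5 (73.2 ± 6.19 CPM per kilobase) lay above Snhg6 (59.6 ± 2.79) without overlap in undifferentiated cells, and Snhg1 (40.2 ± 0.42) above Snhg5 (35.9 ± 1.76), while Snhg5 and Snhg3 (35.5 ± 2.90) overlapped. The order of the hosts after dexamethasone was the same over unshared as over all exon bases. With the longest transcript as the length, Snhg5 (24.8 CPM per kilobase) came above Snhg1 (23.5) after dexamethasone. The place of neighbours in the order of either state therefore depends on the length used.

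The contrast between members was largest for the neighbouring hosts Snhg12 and Snhg3. The ratio of Snhg12 to Snhg3 reads was 1.13, 0.900 and 0.917 in the undifferentiated libraries and 8.91, 8.2 and 7.68 in the dexamethasone libraries. The groups were far apart, and the mean ratio was 8.40-fold higher after dexamethasone. The ratio of Gas5 to Snhg1 was 2.40 ± 0.21 before and 6.31 ± 0.01 after, 2.63-fold higher, and that of Snhg8 to Snhg5 was 0.589 ± 0.05 before and 1.39 ± 0.12 after. In an exact permutation test each of these ratios had p = 0.1, the smallest possible, and 0.120 after adjustment over 6 ratios. The pairs were chosen with the members' directions known, so these ratios are a description.

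Genes beside the hosts did not share one direction with them. Slc3a2, the heavy chain of amino acid transporters, starts 106 bases from Snhg1 on the opposite strand. It rose from 413 ± 18 to 847 ± 44.4 CPM (log2 fold change 1.03, edgeR adjusted p = 1.82e-16) while Snhg1 fell, and the ratio of Slc3a2 to Snhg1 reads was 4.38 ± 0.21 before and 13.2 ± 0.91 after. Rcc1, the nucleotide exchange factor of the GTPase Ran, overlaps Snhg3 on the same strand, and 29.8% of the exon bases of Snhg3 are shared with Rcc1 or Snora73a. Rcc1 fell with Snhg3, from 95.4 ± 5.97 to 24.4 ± 1.29 CPM (log2 fold change -1.97, edgeR adjusted p = 6.95e-19). Their ratio was 3.90 ± 0.43 before and 3.54 ± 0.22 after, with overlapping libraries (exact permutation test, p = 0.3). Reads over their shared exons were not counted for either gene, and reads from transcripts that join both units may be split between them, so the values of this pair are uncertain.

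Zbtb37, a zinc finger gene that overlaps Gas5 on the opposite strand, did not pass the test (log2 fold change -0.09, edgeR adjusted p = 0.400), and the ratio of Gas5 to Zbtb37 reads was 8.62 ± 0.75 before and 16.4 ± 0.51 after. Trnau1ap, which acts in selenocysteine incorporation, lies 739 bases from Snhg12 and did not pass (log2 fold change -0.19, edgeR adjusted p = 0.0588). Wdr74 near Snhg1 and Phactr4 near Snhg3 fell by 0.49 and 0.39 on the log2 scale. The genes within 10000 bases of Snhg5, Snhg6 and Snhg8 had too few reads for the test.

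**Figure D3:**
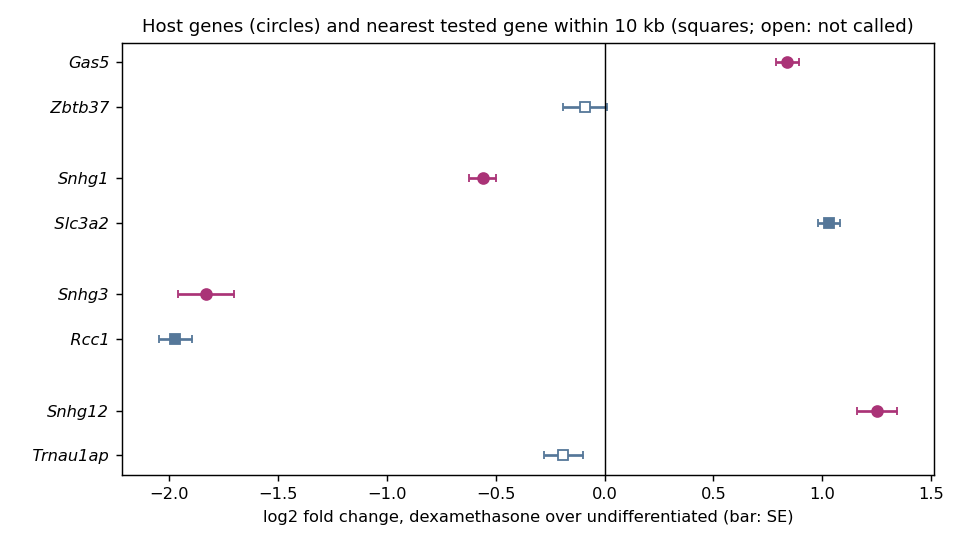
Log2 fold change, dexamethasone over undifferentiated, with its SE (horizontal axis) for 4 host genes (circles) and the nearest tested gene of each within 10 kb (squares, open where not called). Slc3a2 lies on the opposite side of 0 from Snhg1, and Rcc1 lies beside Snhg3.

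The promoters of 6 of the 7 hosts, all but Snhg6, were matched in a RefSeq table of GRCm38.p6, which gives Gas5 at 2 starts. Windows of 30 bases on either side of the annotated start are shown because a run of pyrimidines at the first base is the mark of the 5′ terminal oligopyrimidine (TOP) class to which Gas5 is assigned. The first base of the transcript and the unbroken run of C or T that holds it are in capitals.
Gas5 first start, chr1:161034571-161034630, plus strand: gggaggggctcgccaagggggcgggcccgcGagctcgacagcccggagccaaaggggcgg
Gas5 second start, chr1:161035136-161035195, plus strand: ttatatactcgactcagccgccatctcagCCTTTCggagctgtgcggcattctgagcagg
Snhg12, chr4:132308648-132308707, plus strand: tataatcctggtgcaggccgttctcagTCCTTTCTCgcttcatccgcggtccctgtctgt
Snhg8, chr3:123508307-123508366, minus strand: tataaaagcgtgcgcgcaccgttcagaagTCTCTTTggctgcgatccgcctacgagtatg
Snhg1, chr19:8723457-8723516, plus strand: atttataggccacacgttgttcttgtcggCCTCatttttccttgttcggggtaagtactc
Snhg5, chr9:88522868-88522927, minus strand: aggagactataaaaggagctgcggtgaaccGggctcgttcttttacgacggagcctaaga
Snhg3, chr4:132353657-132353716, minus strand: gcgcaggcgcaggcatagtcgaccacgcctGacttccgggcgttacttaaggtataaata

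The run at the annotated start was 9 bases in Snhg12, 7 in Snhg8 and 6 at the second start of Gas5, the 3 hosts that rose. It was 4 bases in Snhg1, and the first base of Snhg3, of Snhg5 and of the first start of Gas5 was a purine. The runs began upstream of the first base, by 3 bases in Snhg12 and by 1 base in Snhg8, Snhg1 and the second start of Gas5. The first base itself was T in Snhg12 and C in Snhg8, in Snhg1, which fell, and at the second start of Gas5. A run of at least 5 that holds the first base was present in 10.1% of 32851 promoters in the table. One of at least 5 that begins with C at the first base was present in 2.51%. Annotated starts differed by 0 to 744 bases from the Ensembl starts of the same genes, and a shift of a few bases changes this count: within 30 bases of the start, Snhg1 had a run of 9, Snhg5 a run of 7 and Snhg3 a run of 5, and 70.9% of all promoters held a run of at least 5 there. Among tested genes with a run of at least 5 that holds the first base, 42.8% were higher and 36.8% lower. Among the genes without one, these shares were 40.9% and 39.4%. Whether the runs bear on the changes of the members was not tested. The E-box CACGTG, the same on both strands, was searched from 250 bases before to 50 bases after the start and was in none of the 6 hosts in the table, against 7.15% of all promoters.

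Other noncoding hosts also moved in both directions. Of 17 listed by name, 14 were in the annotation under that name, and any host annotated under another name was missed. Of the 14, 8 had enough reads: 2 were higher, 4 were lower and 2 did not pass, with a median log2 fold change of -0.20. Zfas1, the host of the Snord12 family, rose 2.27-fold from 87.2 ± 3.45 to 198 ± 9.92 CPM (edgeR adjusted p = 1.17e-16), and Epb41l4aos rose 1.38-fold. Snhg15 was 2.01-fold lower and Dancr 4.76-fold lower, from 5.94 ± 1.52 to 1.2 ± 0.46 CPM. By annotation, 24 tested long noncoding genes had a snoRNA anywhere in their span, of which 8 were higher and 14 lower. Without the 7 members, 17 remained, of which 5 were higher and 11 lower, with a median of -1.0.

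Among these, 2410006H16Rik rose 2.85-fold, from 56.6 ± 1.89 to 162 ± 8.03 CPM, and 2700038G22Rik was 10.3-fold lower, from 9.32 ± 1.07 to 0.860 ± 0.50 CPM. AI506816 was 3.48-fold lower. Cct6a, a chaperonin subunit gene that the annotation lists under a noncoding biotype, was 2.34-fold lower. Over all 309 tested genes of the lincRNA and processed transcript biotypes, 45.3% were higher and 23.9% lower, with a median of 0.39. Whether the hosts differ from other noncoding genes was not tested.

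**Figure D4:**
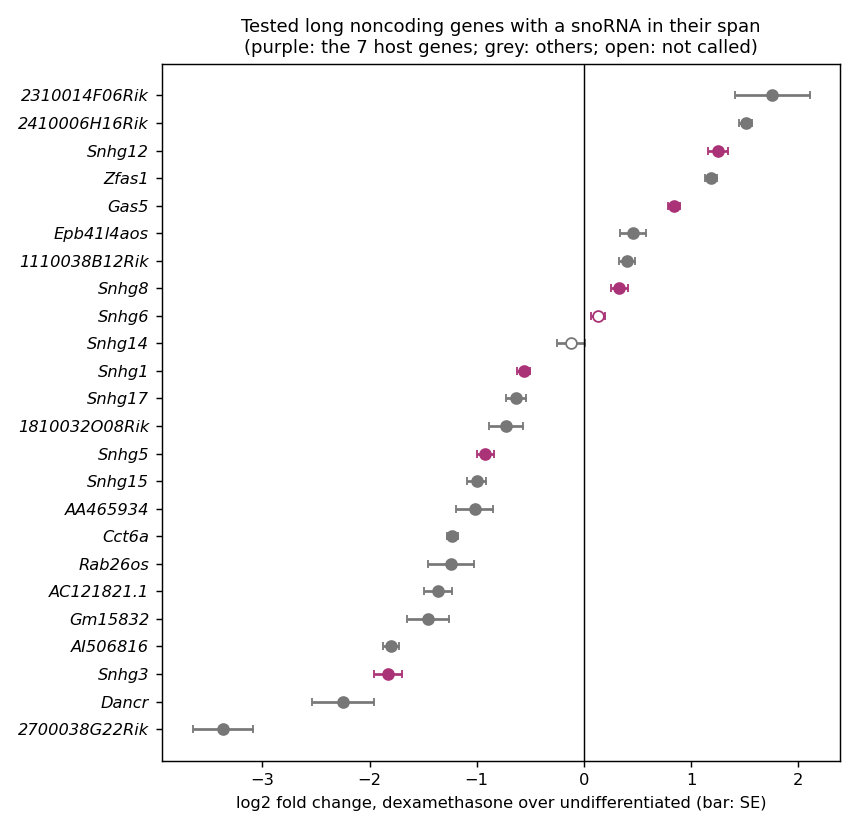
Log2 fold change with its SE (horizontal axis) for the 24 tested long noncoding genes with a snoRNA in their span, ordered by change, with the 7 host genes in purple and genes that did not pass the test open. The members spread from -1.83 for Snhg3 to 1.25 for Snhg12.

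The mRNAs for proteins that package snoRNAs were lower as a group, and the proteins were not measured. Of 18 core and assembly factors, 18 were lower by edgeR under every scaling tried, with a median log2 fold change of -1.09. Fbl, the methyltransferase of C/D box particles, fell from 234 ± 2.34 to 63.5 ± 5.29 CPM, 3.68-fold (edgeR adjusted p = 9.18e-21), and Nhp2, a core protein of H/ACA particles, fell 3.13-fold. Of 30 genes for ribosomal RNA processing and RNA polymerase I, 29 were lower and 1 did not pass, with a median of -1.02, Tcof1 and Ncl being 3.16-fold and 2.91-fold lower. Gas5, Snhg12 and Snhg8 thus rose in cells where the mRNA of every listed snoRNP factor fell.

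Of 33 protein-coding snoRNA hosts listed by name, 9 were higher and 17 lower, with a median of -0.18. Eef2, elongation factor 2, rose 1.32-fold and Rpl17 1.49-fold, whereas Ncl and Dkc1 were lower. With library totals in place of TMM factors 15 of the 33 were higher. Of 158 tested protein-coding genes with a snoRNA inside their span that touches none of their exons, 44 were higher and 94 lower. Their median was -0.30. Among all tested protein-coding genes, 42.1% were higher and 38.8% lower.

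Of 18 nonsense-mediated decay and exon junction factors, 15 were lower and 3 did not pass, with a median of -0.81. The mRNAs of the junction proteins Rbm8a and Eif4a3 were 2.55-fold and 2.29-fold lower. With library totals or upper quartile factors 2 of the 18 were higher. Among 12 mRNAs listed as targets of that decay, 5 were higher and 7 lower: Ddit3, a transcription factor of the integrated stress response, rose 13.7-fold, from 13.5 ± 0.83 to 186 ± 21.5 CPM, and Chac1, a glutathione-degrading enzyme, rose 3.94-fold, while the splicing factors Srsf2 and Srsf7 were 4.57-fold and 3.85-fold lower. Decay itself was not measured, and counts per gene do not separate transcripts that are targets of it from other transcripts of the same gene.

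The TOP class was also mixed. Of 18 TOP mRNAs other than those of ribosomal proteins, 5 were higher and 10 lower, with a median of -0.20. Tpt1 rose 1.71-fold, from 678 ± 9.15 to 1156 ± 17.2 CPM, and Hnrnpa1 was 2.77-fold lower. Of 15 tested genes for TOP and mTORC1 translation control, 3 were higher and 10 lower. Tsc1, a brake on mTORC1, rose 1.57-fold and Eif4ebp1, a repressor of cap-dependent translation, 1.31-fold. The mRNAs of the RNA-binding proteins Tial1 and Larp4 were 2.64-fold and 1.73-fold lower.

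Gas5 was the only one of the Gas genes listed here that was called higher. Of 5 other growth arrest-specific genes, Gas1, Gas2 and Pmp22 (Gas3) were lower, with log2 fold changes of -0.34, -1.47 and -0.20, and with library totals alone only 1 of these 3 was called lower. Gas6 (6 and 47 reads over the groups) and Gas7 (7 and 26 reads) had too few reads for the test and were higher in dexamethasone by read number. With looser filters, up to 2 genes of this list were called higher.

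**Figure D5:**
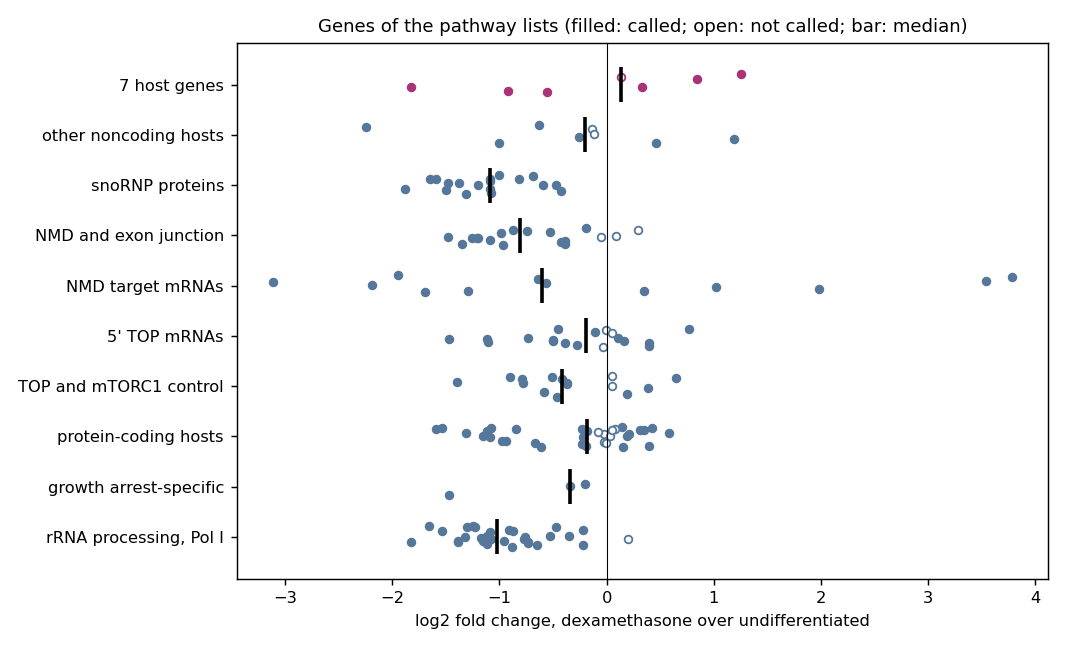
Log2 fold change, dexamethasone over undifferentiated (horizontal axis), of each tested gene (points, open where not called) in the lists named in the text, with the list median as a bar. The 7 host genes spread on both sides of 0, whereas the 18 snoRNP factors all lie below it.

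Among the genes whose profile over the 6 libraries was most like the median profile of the members, by the root mean square difference of centred log2 CPM, were Tm2d2 (0.023), Rnf44 (0.026), Supt6 (0.027) and Pex19 (0.028). That median lies close to Snhg6, since the members moved in both directions. For single members the nearest genes were Supt3 for Gas5 (0.033) and Sod1 for Snhg1 (0.012).

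Library depth was 6411105 to 8757992 counted reads, at which 3 reads amount to 0.327 to 0.487 CPM. Members had far more than this in every library, and the mitochondrial share of reads was 2.93% to 3.44% with overlap between groups. Of 11 catecholaminergic and neuroendocrine markers, 7 were higher and 4 lower, with Scg2 8.11-fold higher and Dbh, the noradrenaline-forming enzyme, 13.2-fold lower. Of 14 markers of glial, endothelial, immune and fibroblast cells, 3 were higher, 1 was lower, 1 did not pass and 9 had too few reads. Their summed level was 32.8 to 36.7 CPM in undifferentiated libraries and 57.7 to 58.8 CPM after dexamethasone, with Mog, Cx3cr1 and Ptprc at 0 reads, and their part in the results was not tested.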

How the data were processed

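Counts per gene came from 6 libraries, 3 per group, grouped by the sample titles. Reads over the exons of Ensembl release 96 were counted by the authors with featureCounts 1.6.4 (strand setting 1, per the file headers), without options for reads that map to several places or overlap several genes. The deposited counts are raw. Per the submitters' processing notes, tools included Trim Galore 0.6.4, HISAT2 2.2.0 and DESeq2, on GRCm38.p6. Per the labels' protocols, the libraries were made with an mRNA selection kit.

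All 55536 gene IDs matched GENCODE M21, which gave names, coordinates and exons. Genes were kept by filterByExpr (minimum count 10, minimum total 15), scaled with TMM and tested with edgeR 4.0.16 in R 4.3.3, with the group as the only term. The common biological coefficient of variation was 4.41%. CPM means are from TMM-scaled libraries. SE is the absolute log2 fold change divided by the square root of F. Shares and ratios were tested by exact two-sided permutation with SciPy. The pipeline was tested on simulated data in which few genes changed, so that test does not cover changes as widespread as those found here. snoRNA sequences were read from the GENCODE M21 transcript sequences, and promoters from RefSeq.

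The members, the lists and the earlier processing choices were chosen with earlier results of these data known. Named genes were the members, from each list up to 2 called genes per direction (lowest adjusted p, at least 1 CPM in a group), neighbours within 10 kb, annotated noncoding hosts and the genes most like the members; some genes that meet this rule are not reported here. The wider host rule, the single-member profiles, the promoter runs, the ratios, the unshared exon length and the summed levels by library totals were added after seeing the data, as was naming the growth arrest-specific genes beyond that rule. Alternatives were other scalings, filters and tools, a stricter threshold, a replicate block and leaving out each library.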

Additional observations from a re-analysis of the deposited data

How the results depend on the processing

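Of the 7 members, Gas5, Snhg12, Snhg8, Snhg1, Snhg5 and Snhg3 kept their direction and their call under every alternative run. Snhg6 was called higher with upper quartile factors (0.23, edgeR adjusted p = 0.00187) and with library totals alone (0.26, edgeR adjusted p = 0.00083), settings that moved the median log2 fold change of all genes by 0.10 and 0.13. They gave 5692 higher and 4334 lower, and 5802 higher and 4207 lower, beside 5106 and 4891 in the main fit. Per kilobase, the share of Snhg8 among the members was 1.68 percentage points higher after dexamethasone, the reverse of its share of reads (-0.165 points). Of 512 list counts under alternatives, 23 moved by more than 1.5 times. Leaving out ribosomal protein genes cut the protein-coding hosts to 3 higher and 8 lower, since they are part of that list. Leaving out a library raised the number called higher from 0 to 1 for decay factors (without undifferentiated replicate 1 or dexamethasone replicate 1) and for ribosomal RNA processing (without undifferentiated replicate 1 or 2 or dexamethasone replicate 3), and to 1 or 2 for growth arrest-specific genes (without any one library but dexamethasone replicate 2). The number of other cell type markers called lower went from 1 to 2 without dexamethasone replicate 3. The causes were not tested. Of 84 levels per kilobase, 32 moved by more than the replicate SD. Libraries of equal replicate number had correlations of -0.0947, 0.0357 and -0.071 in their deviations from the group means. For unequal numbers the correlations ran from -0.0406 to 0.105. With 3 libraries per group such values cannot exclude pairing. A replicate block gave 5017 higher and 4803 lower genes and left every member call as it was. Depth limits the snoRNA entries and the listed hosts with too few reads.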
